A study of Mus musculus with 3 samples.

Results

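Cxcr6, Il7r, Icos, Thy1, Rora and Ctla2a were followed through immune cells of the small-intestinal muscularis before and after surgical manipulation of the gut. These 6 genes, of 14148 listed in the count tables, were taken by name. They were selected on their measured levels in these same libraries, where they had stood out in lymphocytes, so their level in lymphocytes against other cells is given as a description. Each gene was read in T cells, in CD3-negative lymphocytes and in all other cells, at each time point.

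Lymphocytes that settle in a tissue differ from those that circulate in how they are held in place and kept alive. CXCR6 is a chemokine receptor that binds CXCL16 and marks many tissue-resident T, NK and innate lymphoid cells. The receptor chain encoded by Il7r pairs with the common gamma chain to bind IL-7, a survival factor, or with the chain encoded by Crlf2 to bind TSLP. ICOS is a costimulatory receptor of activated T cells and of group 2 innate lymphoid cells. Thy1 encodes a glycolipid-anchored surface protein of mouse T cells and innate lymphoid cells, RORα is a nuclear receptor required for group 2 innate lymphoid cells, and Ctla2a encodes a small inhibitor of cathepsin-type cysteine proteases, first found in activated T cells.

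The tables held 3 libraries of CD45+ cells, sorted from the muscularis externa of WT C57BL/6J female mice aged 12 weeks: naïve mice, and mice 24 h or 72 h after intestinal manipulation, in which the exposed small intestine is pressed along its length. Each library pooled the cells of several mice, and each time point had 1 library. An effect of time therefore cannot be told apart from one of the library, and no difference between time points has a replicate. Intervals below are 95% intervals of counting error.

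The libraries held 652, 2211 and 1239 cells at naïve, 24 h and 72 h, with medians of 2134.5, 4669 and 3295 UMIs (unique molecular identifiers, each 1 counted transcript) per cell. Scrublet called 16 doublets, which is 0.39% of the cells, so doublets cannot be taken as removed, and each pair of libraries shared 1 cell barcode. Clustering without the 6 genes gave 17 clusters, of which 2 passed the rule for T cells. The first, called the mixed cluster here, held 233 cells (59, 65 and 109 at naïve, 24 h and 72 h) with markers of T and NK cells side by side. The second, called the Gzma cluster, held 162 cells (129, 6 and 27) and was led by Gzma, Gzmb, Ccl5, Cd7, Cd3g, Cd8a and Trdc. These 395 lymphocytes were split by CD3 into 305 T cells with a UMI of Cd3d, Cd3e or Cd3g (169, 40 and 96) and 90 CD3-negative lymphocytes (19, 31 and 40), of which 89 lay in the mixed cluster. The CD3-negative cells are not shown to be innate: 84 of the 90 carried a UMI of a T cell receptor constant gene, 81 of Trbc1 or Trbc2 and 9 of Trac. Myeloid transcripts were present among lymphocytes, since 150 of the 395 held at least 2 UMIs of Lyz2.

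Levels are in CPM, for which the UMIs of all cells in a group were added up and scaled to a total of 1000000. Nearly all UMIs of the chemokine receptor gene came from lymphocytes: 355 of 384 Cxcr6 UMIs, or 92.4%. The shares for Icos (112 of 128) and Thy1 (568 of 649) were both 87.5%, and for Ctla2a 323 of 388 UMIs gave 83.2%. Rora had 140 of 187 UMIs (74.9%) in lymphocytes. Il7r was the most widely spread, with 249 of 390 UMIs (63.8%) in lymphocytes and the other 141 in 107 of the 3707 other cells. Of these other cells 172 held a CD3 UMI, so the UMIs outside the 2 clusters were not all in cells without CD3. The 172 cells held 12 of the 16 Icos UMIs outside lymphocytes, 17 of 29 for Cxcr6 and 40 of 81 for Thy1. For Rora they held 15 of 47, for Ctla2a 18 of 65 and for Il7r 14 of 141. Summed over the libraries, B cell-like cells, with a median of 1761 UMIs, showed the background: of 301 such cells 2 held a Cxcr6 UMI, 2 a Thy1 UMI and none a UMI of Il7r, Icos, Rora or Ctla2a, which at this depth allows a share of cells with a UMI of up to 0.997%. Most of these B cell-like cells, 227, came from the naïve library, with 32 from 24 h and 42 from 72 h. Among mixed-cluster T cells (median 2498 UMIs) the corresponding shares were 43.8% for Cxcr6, 43.1% for Il7r, 38.2% for Icos, 75.7% for Thy1, 32.6% for Rora and 37.5% for Ctla2a. Thinned to 1000 UMIs per cell these became 21.7%, 21.7%, 18.9%, 52.4%, 11.9% and 20.98%.

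**Figure D1:**
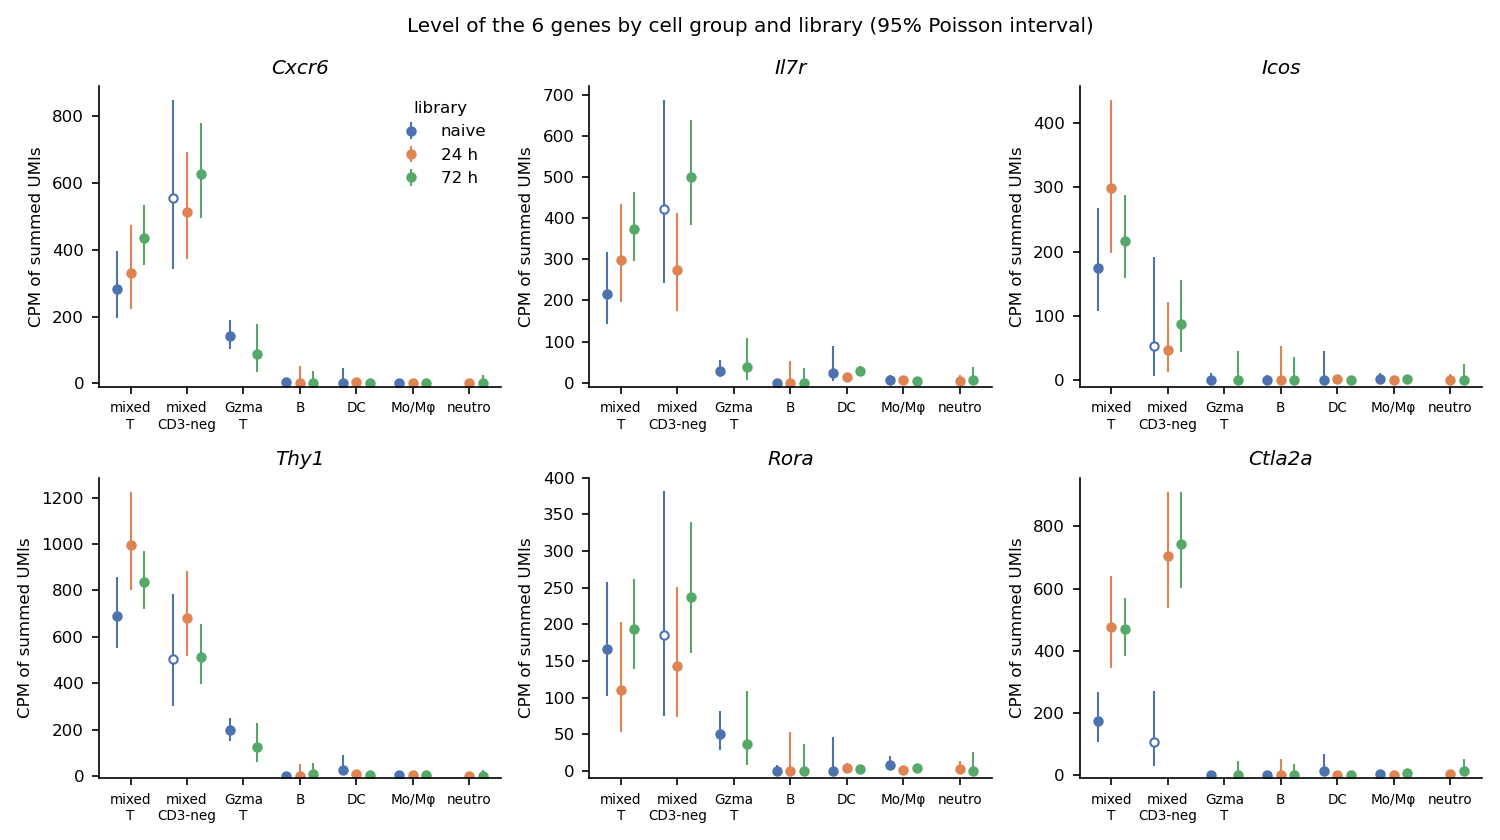
Level of each gene (vertical axis, CPM of summed UMIs) in mixed-cluster T cells, mixed-cluster CD3-negative lymphocytes, Gzma-cluster T cells, B cell-like, DC-like, monocyte/macrophage-like and neutrophil-like cells (horizontal axis), coloured by library, with 95% Poisson intervals. The hollow point stands for the 18 naïve CD3-negative cells, and groups under 15 cells are not drawn. All 6 genes sit highest in the cells of the mixed cluster, and Icos and Ctla2a are at 0 in Gzma-cluster T cells.

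Cxcr6 lies on chromosome 9 (GRCm38, 123806475-123811760, plus strand), a protein-coding gene on the strand opposite to Fyco1, which is also counted here. Whether the counting used strand was not given in the sources used here. The 250 bases before its RefSeq start are printed because the gene is the chemokine receptor of the set and the only one of the 4 with a window that held more than 1 of the motifs searched. The capitals mark the matches of CTTTGA (TCF), which begins 129 bases before the start, and of TGTGGT (RUNX), which matches on the other strand from 10 bases before the start (RefSeq, GRCm38.p6, chr9:123806227-123806476, plus strand):
Cxcr6: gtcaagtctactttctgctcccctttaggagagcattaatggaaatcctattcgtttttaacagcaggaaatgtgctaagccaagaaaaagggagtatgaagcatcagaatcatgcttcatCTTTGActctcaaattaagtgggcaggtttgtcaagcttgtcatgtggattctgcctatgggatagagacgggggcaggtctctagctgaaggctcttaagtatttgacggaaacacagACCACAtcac
Both strands were searched for these letters and for those of the GATA motif (AGATAA) and the ROR motif (AGGTCA), and no match overlapped another. Of 32817 windows of this length, 14.0% held the RUNX letters, 13.8% the TCF letters, 9.99% the GATA letters and 14.0% the ROR letters. The windows of Il7r and Rora held none of the 4 motifs.

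In mixed-cluster T cells Cxcr6 stood at 283 CPM (196-396) in the naïve library, 332 CPM (224-474) at 24 h and 437 CPM (354-534) at 72 h. In the CD3-negative cells of the cluster it was 555 CPM (344-849, from 18 cells), 514 CPM (372-692) and 626 CPM (496-780). Gzma-cluster T cells showed 142 CPM (104-191) in the naïve library and 87.0 CPM (35.0-179) at 72 h. Cxcr6 was thus above the T cells of its own cluster in the CD3-negative cells of each library, and it was the member with the most even level over time in those cells. In the naïve library its level was 1.99-fold higher (1.24-3.17) in mixed-cluster than in Gzma-cluster T cells, and at 72 h 5.02-fold higher (2.35-12.8). Of the 6 genes, 5 were at least 2-fold higher in mixed-cluster than in Gzma-cluster T cells of the naïve library (9.99% of 5066 genes were) and 6 at 72 h (16.8% of 3955), a difference close to the one by which the genes were chosen.

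Il7r lies on chromosome 15 (GRCm38, 9505788-9530176, minus strand). Its level in mixed-cluster T cells was 217 CPM (142-317) in the naïve library, 299 CPM (197-435) at 24 h and 373 CPM (296-463) at 72 h. In mixed-cluster CD3-negative cells the values were 423 CPM (242-687), 275 CPM (174-412) and 499 CPM (384-639). The CD3-negative cells at 72 h stood at 1.82 times those at 24 h (1.11-3.07), but at 1.01 times (0.497-2.14) with each cell thinned to 1000 UMIs. In Gzma-cluster T cells the gene was scarce, with 9 UMIs in 128 naïve cells (28.5 CPM, 13.0-54.1) and 3 UMIs in 27 cells at 72 h. The mixed cluster exceeded it by 7.60-fold (3.45-18.4) in the naïve library.

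Icos lies on chromosome 1 (GRCm38, 60977927-61000320, plus strand). Mixed-cluster T cells held 175 CPM (108-268), 299 CPM (197-435) and 216 CPM (159-288) in the naïve, 24 h and 72 h libraries. The CD3-negative cells of the cluster held 2, 4 and 11 UMIs, or 52.9 CPM (6.40-191), 47.8 CPM (13.0-122) and 87.2 CPM (43.5-156). No UMI was found in 161 Gzma-cluster T cells (0 of 410995 UMIs), which allows up to 7.30 CPM. In the naïve library mixed-cluster T cells were at least 18.4-fold higher than Gzma-cluster T cells, with the latter set at 3 counts over the group. Mixed-cluster T cells held 95 of the 112 lymphocyte UMIs of Icos, against 355 of 568 for Thy1, 134 of 249 for Il7r, 166 of 323 for Ctla2a, 72 of 140 for Rora and 159 of 355 for Cxcr6.

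Thy1 lies on chromosome 9 (GRCm38, 44043384-44048579, plus strand). Its level was 692 CPM (551-857), 997 CPM (802-1225) and 838 CPM (720-968) in mixed-cluster T cells at naïve, 24 h and 72 h. In the CD3-negative cells it was 502 CPM (302-784), 681 CPM (516-882) and 515 CPM (398-656). At 109 of 144 mixed-cluster T cells it was the member detected in most cells. Gzma-cluster T cells held 196 CPM (150-252) in the naïve library and 124 CPM (59.6-229) at 72 h.

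Rora spans 734.5 kb of chromosome 9 (GRCm38, 68653786-69388246, plus strand). The level in mixed-cluster T cells was 167 CPM (102-257), 111 CPM (53.1-204) and 193 CPM (139-261). In CD3-negative cells of the cluster it was 185 CPM (74.4-381), 143 CPM (74.1-250) and 238 CPM (160-339). In both groups the 24 h library was the lowest of the 3, with overlapping intervals. Gzma-cluster T cells held 50.6 CPM (29.0-82.2) and 37.3 CPM (7.69-109) at naïve and 72 h.

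Ctla2a lies on chromosome 13 (GRCm38, 60934155-60936625, minus strand), 36.7 kb from its paralog Ctla2b (60895350-60897447). The best local alignment of a transcript of each was identical at 93.3% of 705 aligned bases, so reads could be split or lost between the pair and levels of both are uncertain. The counts of the pair nevertheless differed, with 388 UMIs of Ctla2a over all cells. In mixed-cluster T cells Ctla2b had 0, 1 and 2 UMIs at naïve, 24 h and 72 h, and in the CD3-negative cells 1, 0 and 4. The 250 bases before each RefSeq start are printed to show how alike the pair is there. Capitals mark bases that differ or that the other window lacks (RefSeq, GRCm38.p6, minus strand, chr13:60936626-60936875 and chr13:60897448-60897697):
Ctla2a: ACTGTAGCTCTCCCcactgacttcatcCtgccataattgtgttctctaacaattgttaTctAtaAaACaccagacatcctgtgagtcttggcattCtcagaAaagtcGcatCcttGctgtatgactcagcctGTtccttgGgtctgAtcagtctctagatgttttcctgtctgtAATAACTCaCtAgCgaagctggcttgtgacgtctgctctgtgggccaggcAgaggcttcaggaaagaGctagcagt
Ctla2b: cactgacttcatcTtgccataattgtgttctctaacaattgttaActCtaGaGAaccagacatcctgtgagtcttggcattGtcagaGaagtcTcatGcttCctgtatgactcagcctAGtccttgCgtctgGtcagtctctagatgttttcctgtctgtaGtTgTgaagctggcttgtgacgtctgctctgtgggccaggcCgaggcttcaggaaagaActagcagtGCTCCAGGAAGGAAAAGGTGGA
Of 228 aligned bases 208 were identical (91.2%), and 22 bases of each window lay outside the alignment or opposite a gap. The Ctla2a window held AGATAA on the other strand, beginning 195 bases before the start.

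In mixed-cluster T cells Ctla2a stood at 175 CPM (108-268) in the naïve library, 476 CPM (345-642) at 24 h and 469 CPM (383-570) at 72 h. In the CD3-negative cells it stood at 106 CPM (28.8-271), 705 CPM (537-909) and 745 CPM (602-911). The 24 h and 72 h libraries were above the naïve library in both groups, and no UMI was found in the 161 Gzma-cluster T cells. The UMIs were held by few cells: at 72 h 25 of 69 mixed-cluster T cells held all 102, 3 of them held 50% or more, and 1 held 25. In the naïve CD3-negative cells 1 of 18 held 3 of the 4 UMIs. The counting intervals of Ctla2a, which treat UMIs as independent, are therefore too narrow. Those of the other members may be too narrow as well. Of 26 Il7r UMIs in naïve mixed-cluster T cells, for example, 1 cell held 7.

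Over all T cells, 4 of the 6 genes were at least 2-fold higher at 24 h than in the naïve library, where 9.5% of 5766 genes were. The ratios were 8.51 (4.94-15.1) for Ctla2a, 5.34 (2.91-9.94) for Icos, 3.33 (1.95-5.63) for Il7r and 2.58 (1.96-3.38) for Thy1, with 1.63 (1.04-2.50) for Cxcr6 and 1.15 (0.511-2.38) for Rora. At 72 h 3 of the 6 genes were at least 2-fold above the naïve library, against 8.38% of 6722 genes: Ctla2a at 7.11 (4.41-12.0), Il7r at 3.51 (2.34-5.37) and Icos at 3.28 (1.92-5.77). The median log2 ratio of the 6 genes was 1.55 at 24 h and 1.33 at 72 h, beside 0.00 and -0.03 over all genes with enough UMIs. Both comparisons share the naïve library.

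The make-up of the T cells differed between the libraries. The Gzma cluster gave 128 of 169 T cells in the naïve library, 6 of 40 at 24 h and 27 of 96 at 72 h. Within the mixed cluster alone 1 of the 6 genes, Ctla2a, was at least 2-fold higher at 24 h (background 9.5% of 2969 genes) and the same 1 at 72 h (background 12.4% of 4279). Its ratio was 2.72 (1.58-4.83) at 24 h and 2.68 (1.67-4.52) at 72 h. For Il7r the ratio was 1.38 (0.775-2.46) and 1.72 (1.09-2.79), for Icos 1.71 (0.931-3.18) and 1.24 (0.725-2.18), and for Thy1 1.44 (1.06-1.97) and 1.21 (0.929-1.59). Cxcr6 gave 1.17 (0.693-1.98) and 1.54 (1.03-2.36), and Rora 0.665 (0.278-1.49) and 1.16 (0.666-2.09). The ratios of all 6 genes, Ctla2a included, were thus smaller within the cluster than over all T cells at both times. Without the T cell that held 25 Ctla2a UMIs, a setting added after seeing the data, the ratio of Ctla2a at 72 h over naïve was 5.45 (3.33-9.30) in all T cells and 2.07 (1.26-3.53) within the cluster. With each cell thinned to 1000 UMIs, Ctla2a in all T cells gave 4.79 (1.98-11.8) at 24 h and 3.26 (1.49-7.54) at 72 h.

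**Figure D2:**
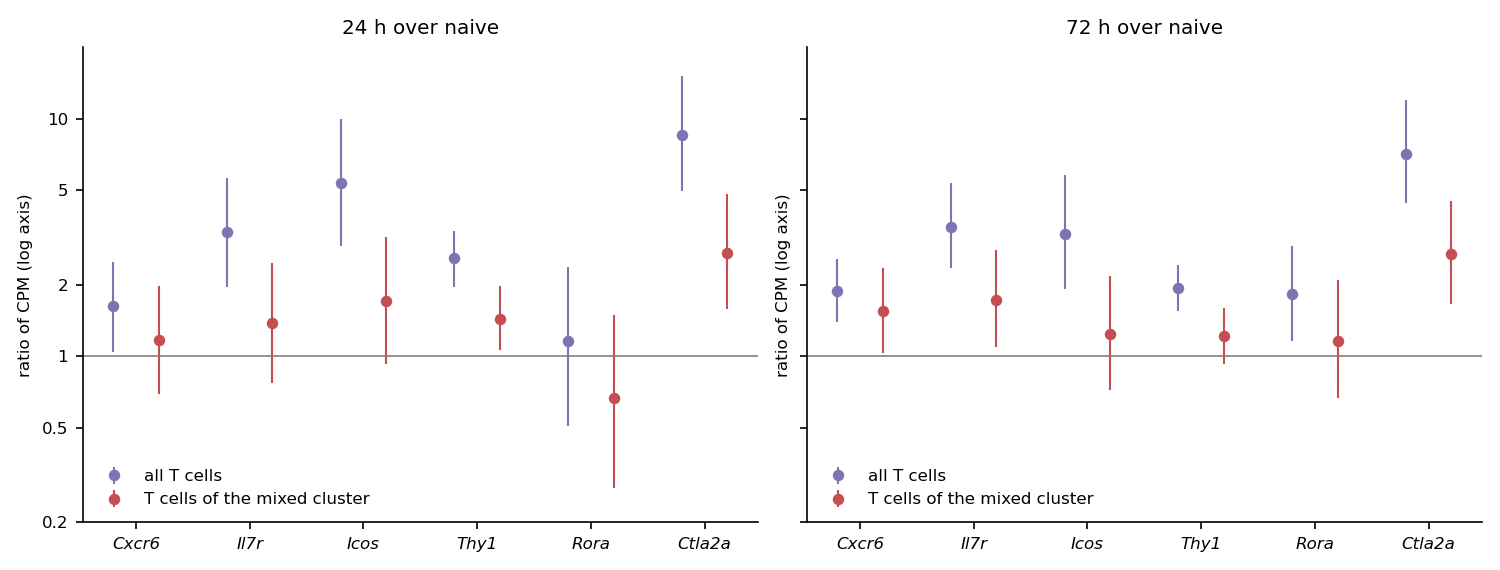
Ratio of CPM over the naïve library (vertical axis, log scale) for the 6 genes at 24 h (left) and 72 h (right), in all T cells and in T cells of the mixed cluster, with 95% conditional Poisson intervals and a line at 1. Each point of the mixed cluster lies below that of all T cells, with Ctla2a at 2.72 against 8.51 at 24 h and at 2.68 against 7.11 at 72 h, and Rora at 24 h lies below 1.

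Markers of other cells moved between the same libraries. The 10 monocyte/macrophage markers summed to 342 CPM in naïve mixed-cluster T cells (7 of 10 with a UMI, Mrc1, Adgre1 and Fcgr1 at 0), 2293 CPM at 24 h (9 of 10, Mrc1 at 0) and 1500 CPM at 72 h (10 of 10). The 6 neutrophil markers summed to 8.33, 465 and 368 CPM, with Cxcr2 and Retnlg at 0 in each library. The 9 NK cell markers, which include Gzma, the leading gene of the Gzma cluster, summed to 1325, 299 and 934 CPM. In naïve Gzma-cluster T cells the same 9 summed to 30005.5 CPM, so this list does not mark other cells only. Monocyte/macrophage-like cells themselves held 3.58 CPM of Ctla2a (2.61-4.80) and 1.04 CPM of Cxcr6 (0.551-1.77). The 27 Gzma-cluster T cells at 72 h, with 1417 CPM of monocyte/macrophage markers, held no UMI of Ctla2a or Icos, which allows up to 37.3 CPM of each. Neutrophil-like cells held 7.16 CPM of Ctla2a and no Cxcr6, Icos or Thy1 UMI. Whether transcripts of other cells had a part in the ratios over time was not tested.

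Between 24 h and 72 h no member was 2-fold apart in all T cells (background 10.2% higher and 7.47% lower of 4901 genes) or in CD3-negative lymphocytes (7.36% higher and 11.6% lower of 3138 genes). Thy1 was lower at 72 h in T cells, at 0.751 times its level at 24 h (0.582-0.976), and within the mixed cluster at 0.840 times (0.649-1.09). The naïve CD3-negative group, with 19 cells, fell under the minimum of 20. With the minimum lowered to 15 cells, a choice made after seeing the data, Ctla2a in CD3-negative lymphocytes was 6.92-fold higher at 24 h (2.56-26.2) and 7.31-fold higher at 72 h (2.76-27.4) than in the naïve library, resting on 4 naïve UMIs. The same ratios for the other 5 genes lay between 0.674 and 1.71.

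T cells and CD3-negative lymphocytes of 1 library share its preparation and depth. Within the mixed cluster, Icos was the only member at least 2-fold lower in CD3-negative cells, at 0.160 times the level of T cells at 24 h (0.0406-0.459) and 0.403 times at 72 h (0.188-0.788). The background was 9.87% of 2686 genes and 10.6% of 4420 genes. Thy1 was also lower in CD3-negative cells, at 0.683 times (0.481-0.962) and 0.615 times (0.456-0.821). Cxcr6 was higher, at 1.55 times (0.948-2.55) at 24 h and 1.43 times (1.05-1.95) at 72 h, as was Ctla2a, at 1.48 times (0.982-2.25) and 1.59 times (1.19-2.12). At 24 h the intervals of both included 1. In the naïve library, with 18 CD3-negative cells, Ctla2a had the opposite order, at 0.604 times (0.151-1.79). Without the T cell that held 25 UMIs its ratio at 72 h was 2.06 (1.51-2.82). For Il7r the ratio was 0.919 (0.503-1.66) and 1.34 (0.948-1.88), and for Rora 1.29 (0.512-3.34) and 1.23 (0.743-2.01), so their intervals included 1 at both times. In the naïve library, with the 18 CD3-negative cells, Cxcr6 stood at 1.96 times (1.08-3.47) and Il7r at 1.95 times (0.979-3.78). With T cells of both clusters as the base, the ratio of Ctla2a at 72 h was 2.17 (1.63-2.91), the only member at least 2-fold higher there (background 9.38% of 5127 genes).

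**Figure D3:**
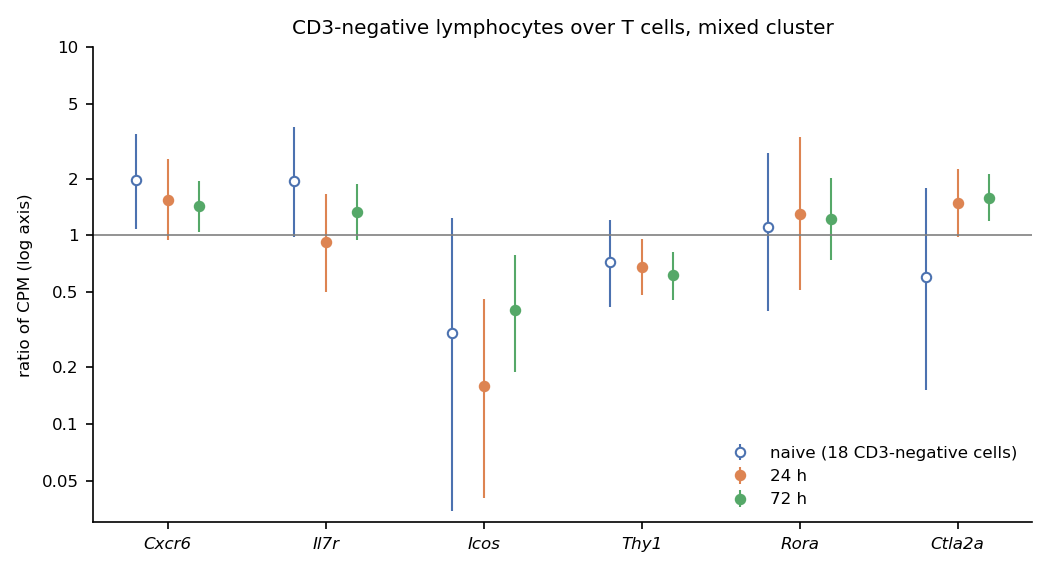
Ratio of CPM in CD3-negative lymphocytes over T cells of the mixed cluster (vertical axis, log scale) for the 6 genes, coloured by library, with 95% conditional Poisson intervals and a line at 1. The hollow points rest on 18 naïve CD3-negative cells, Icos lies below 1 in each library, and Cxcr6 lies above 1 in each.

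The CD3-negative cells were split by the receptors of NK cells. In the mixed cluster 56 of them held a UMI of the NK cell receptor genes Ncr1, Klrb1c or Klre1 (9, 21 and 26 at naïve, 24 h and 72 h, median 2513.5 UMIs), and 33 held none (9, 10 and 14, median 2626 UMIs). The cells without held 573 CPM of Gata3 (434-742), the transcription factor of group 2 innate lymphoid and T helper cells, against 80.9 CPM (41.8-141) in the cells with, and Klrg1 at 322 CPM against 67.4 CPM. Xcl1, a chemokine gene of NK cells, stood at 80.4 CPM without and 870 CPM with the receptor UMIs. Il1rl1, a defining gene of group 2 innate lymphoid cells, was found in 3 of the 33 cells and in none of the 56. The other group 2 markers are not given for this split, so the 33 cells are not shown to be group 2 cells.

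Il7r and Rora were lower in the CD3-negative cells with NK receptor UMIs. Il7r stood at 317 CPM (233-422) with and 553 CPM (417-720) without, a ratio of 0.573 (0.380-0.862). Rora stood at 142 CPM (87.7-216) and 282 CPM (187-407), a ratio of 0.503 (0.272-0.918). Cxcr6 was at 641 CPM with and 483 CPM without (ratio 1.33, 0.929-1.92), Thy1 at 580 and 553 CPM (1.05, 0.739-1.499), Ctla2a at 600 and 684 CPM (0.878, 0.633-1.22) and Icos at 54.0 and 90.5 CPM (0.596, 0.2002-1.74). These sums pool the 3 libraries, and the group with receptor UMIs held relatively more cells of 24 h. Both sets of CD3-negative cells held Cxcr6, Thy1 and Ctla2a.

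Among mixed-cluster T cells, 29 with a Cd4 UMI (median 3078 UMIs) and 27 with a Cd8a UMI (median 2451) differed most in Icos, at 310 CPM (209-442) against 34.4 CPM (7.10-101). Cxcr6 stood at 413 CPM (295-562) in the cells with Cd4 and 195 CPM (114-312) in those with Cd8a, and Rora at 196 CPM (118-306) and 91.8 CPM (39.6-181). Il7r was at 155 and 149 CPM, Thy1 at 753 and 861 CPM and Ctla2a at 310 and 390 CPM. The intervals of all members other than Icos overlapped between these cells. The 38 T cells with a Gata3 UMI held Ctla2a at 600 CPM (475-749) and Il7r at 262 CPM (181-366).

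Smaller sets are given as values only. The 12 mixed-cluster T cells with a UMI of Il17a, the cytokine of type 3 lymphocytes, held 33 Cxcr6 UMIs (1005 CPM, 692-1412), 17 Icos UMIs (518 CPM, 302-829) and 1 Ctla2a UMI. The 13 mixed-cluster T cells with a UMI of Trdc, a constant gene of the gamma delta receptor, held 26 Cxcr6 UMIs (796 CPM, 520-1167) and none of Ctla2a, which allows up to 3 counts of their total. Of the Gzma-cluster T cells, 97 had a Trdc UMI and 64 had none, and their Cxcr6 levels were 131 CPM (90.8-183) and 125 CPM (75.4-196). Thy1 was at 116 CPM (78.1-165) in those with Trdc and 277 CPM (200-374) in those without, and Rora at 19.3 CPM (6.26-45.0) and 92.3 CPM (50.5-155). In the dividing cluster led by Pclaf, 21 cells with CD3 held 22 Thy1 UMIs (136 CPM, 85.5-206), and 71 cells without CD3 held none.

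**Figure D4:**
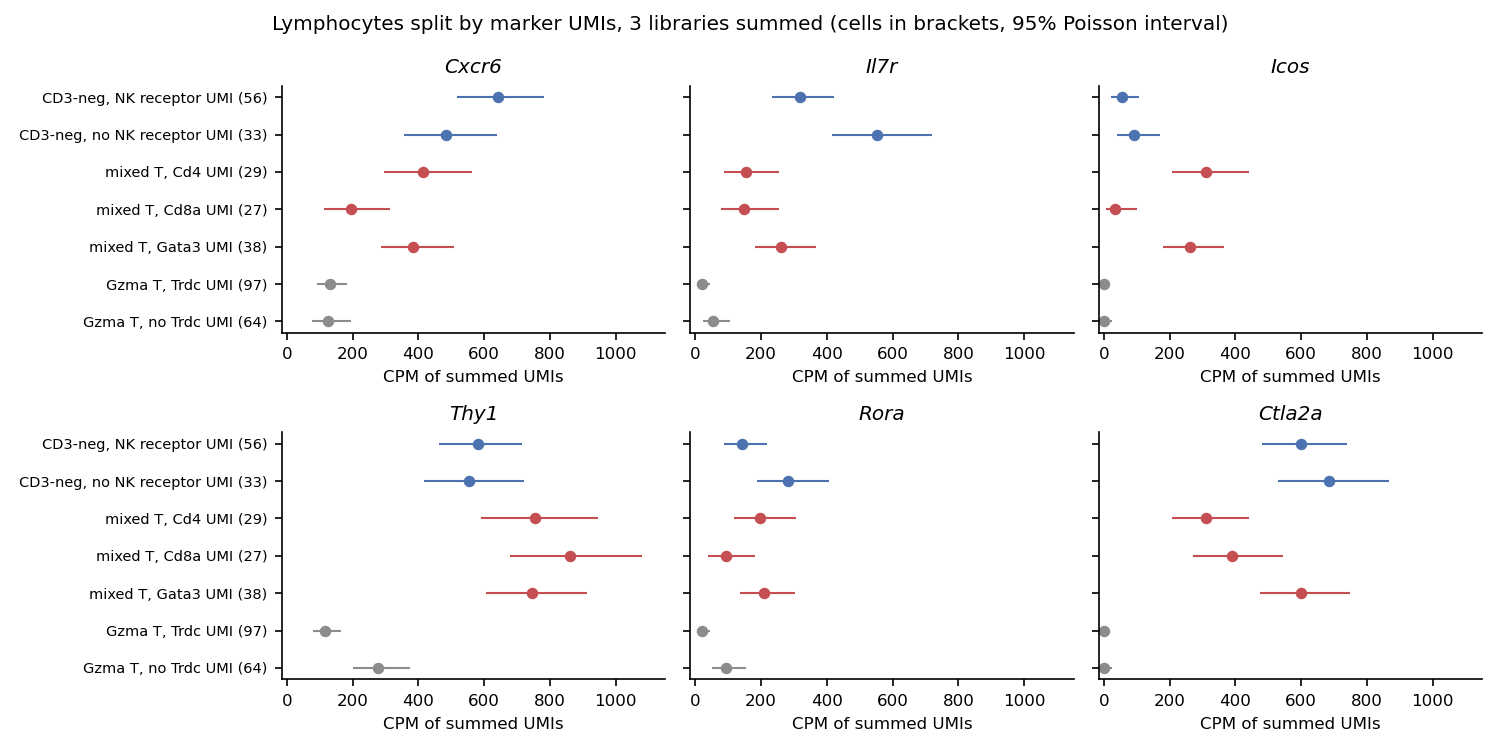
Level of each gene (horizontal axis, CPM of UMIs summed over the 3 libraries, with 95% Poisson intervals) in lymphocytes split by marker UMIs (vertical axis, number of cells in brackets): CD3-negative cells in blue, mixed-cluster T cells in red and Gzma-cluster T cells in grey. Icos is at 310 CPM in T cells with Cd4 and at 34.4 CPM in those with Cd8a, and Il7r and Rora are lower in CD3-negative cells with NK receptor UMIs.

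Most cells of the mixed cluster carried more than 1 of the 6 genes. Of 144 mixed-cluster T cells 136 held at least 1 of them and 84 held 3 or more (58.3%, 49.8-66.5%). Of 89 CD3-negative cells 84 held at least 1 and 39 held 3 or more (43.8%, 33.3-54.7%), against 3 of 161 Gzma-cluster T cells and 0 of 301 B cell-like cells. Thinned to 1000 UMIs per cell, 14.7% of 143 T cells (9.33-21.6%) and 19.5% of 87 CD3-negative cells (11.8-29.4%) held 3 or more. The intervals of these groups overlapped before and after thinning, so their order is not settled. Of 2254 monocyte/macrophage-like cells, with a median of 5582.5 UMIs, 7.45% held at least 1 before thinning and 1.53% of 2216 after it.

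Il7r was found in 37 of 63 mixed-cluster T cells that held Cxcr6 (58.7%) and in 30.9% of those that did not. In CD3-negative cells the shares were 59.6% and 28.6%. Ctla2a showed the opposite order, with 30.2% of T cells with Cxcr6 against 43.2% without it, and 21.3% against 57.1% of CD3-negative cells. Deeper cells hold more UMIs of every gene, so pairs are found together more often in them, and these shares are unthinned. They describe the cells of the 3 libraries together.

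Outside the lymphocytes, Il7r was the member with the most UMIs, and its level differed between named clusters. The DC-like cluster led by Fscn1 and Ccl22, with the migratory marker Ccr7, held 13 Il7r UMIs in 10 of 21 cells (110 CPM, 58.8-189) and 1 Thy1 UMI. At 24 h, 38 of 422 monocyte/macrophage-like cells of the cluster led by Fabp5 and Gpnmb held 56 UMIs (18.3 CPM, 13.8-23.8). The interferon-response cluster led by Cxcl10 in the same library had 2 UMIs in 307 cells (0.934 CPM, 0.113-3.37), with median depths of 7086.5 and 6914 UMIs, and the cluster led by Gm9733 had none in 236 cells (up to 2.36 CPM). The DC-like cluster led by Cd209a held 10.9 CPM (4.71-21.5) at 24 h and 24.2 CPM (14.4-38.3) at 72 h.

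The Il7r UMIs per Thy1 UMI differed between these clusters, from 0.181 in the Gzma cluster and 0.476 in the mixed cluster to 2.80 in the Cd209a cluster, 5.6 in the Fabp5 cluster and 13.0 in the Fscn1 cluster. Other monocyte/macrophage-like clusters went both ways, with 1.71 in the one led by Mmp12 (12 and 7 UMIs) and 0.7 in the one led by Fcrls (7 and 10 UMIs). Over all monocyte/macrophage-like cells of the 3 libraries Il7r was at 6.61 CPM (5.26-8.19), and the other 5 genes were at most 3.58 CPM. By library Il7r was the highest member there only at 24 h, at 7.57 CPM. In the naïve library Rora was at 8.12 CPM against 6.09 CPM for Il7r. At 72 h Ctla2a was at 7.47 CPM and Thy1 at 5.85 CPM, against 3.90 CPM for Il7r.

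**Figure D5:**
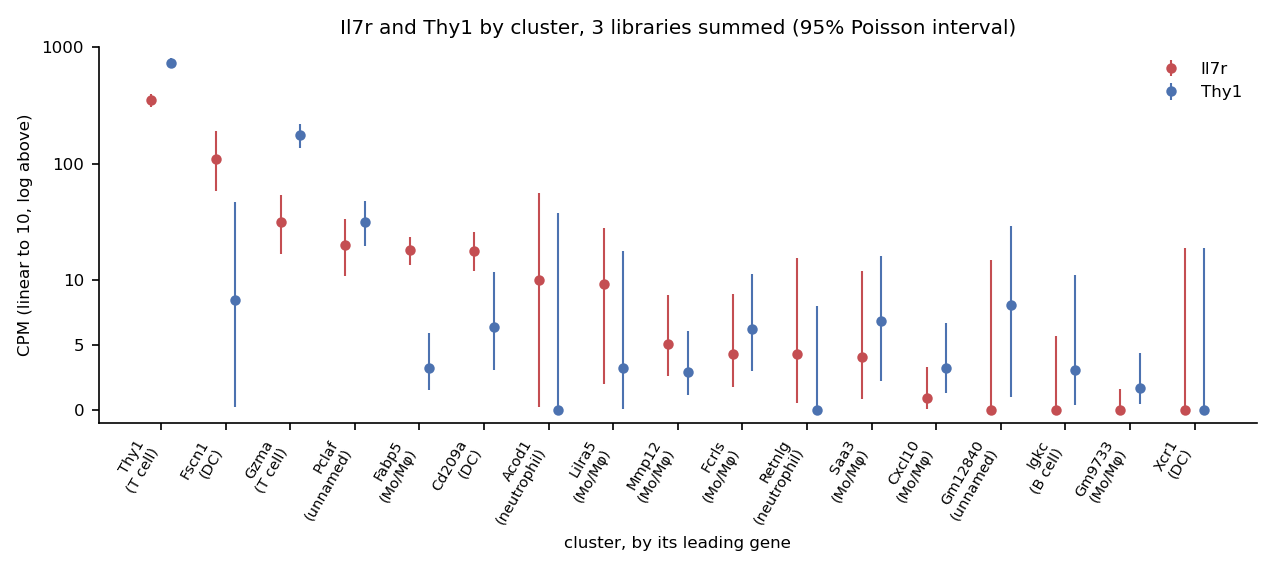
Il7r and Thy1 levels (vertical axis, CPM, linear to 10 and log above) in the 17 clusters (horizontal axis, by leading gene and assigned class), summed over the 3 libraries, with 95% Poisson intervals. Il7r exceeds Thy1 in the clusters led by Fscn1, Cd209a and Fabp5, whereas Thy1 exceeds Il7r in the mixed cluster (led by Thy1) and the Gzma cluster. The clusters led by Mmp12 and Fcrls differ less, in opposite directions.

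The partners of the 6 genes were read from a list of 20. Of these, 10 had enough UMIs in mixed-cluster T cells for 72 h over naïve, 1 was at least 2-fold higher and none 2-fold lower (median log2 ratio -0.14), beside 12.4% higher and 7.83% lower of 4279 genes. The 1 was Crlf2, the TSLP receptor chain, with 6 UMIs in the naïve library, 15 (166 CPM) at 24 h and 33 (152 CPM) at 72 h. Il2rg, the common gamma chain that pairs with the Il7r product, stood at 317, 321 and 419 CPM in T cells and at 502, 370 and 444 CPM in CD3-negative cells. Of the other costimulatory receptors, Cd28 was at 225, 199 and 239 CPM in mixed-cluster T cells and at 0, 11.9 and 47.5 CPM in CD3-negative cells, and Ctla4 at 133, 188 and 92.0 CPM against 0, 23.9 and 15.8 CPM. Cd28 and Ctla4 were thus lower in the CD3-negative cells of each library, the direction also seen for Icos. These CD3-negative values rest on few counts. The naïve 0 comes from 18 cells and allows up to 79.3 CPM. At 24 h both genes lay below the 35.8 CPM that 3 counts make, and at 72 h Ctla4 lay below 23.8 CPM. Bcl2, a survival gene downstream of IL-7, stood at 417, 210 and 253 CPM in mixed-cluster T cells and at 668 CPM in Gzma-cluster T cells of the naïve library, which held little Il7r.

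Other genes of tissue residency did not share 1 direction. Of 15 on the list, 14 were in the tables, and 13 had enough UMIs in mixed-cluster T cells for 72 h over naïve: 2 were at least 2-fold higher and 1 was at least 2-fold lower (median log2 ratio 0.20), beside 12.4% higher and 7.83% lower of all genes. The higher ones were Itgae, the integrin chain of intraepithelial cells (16.7 CPM naïve, 73.6 CPM at 72 h), and Nr4a1, an activation-induced nuclear receptor (16.7 and 120 CPM), and the lower one was Xcl1 (158 and 55.2 CPM). The naïve values of Itgae and Nr4a1 lay below the 25.0 CPM that 3 counts make in that group, so the size of both rises is uncertain. In the naïve library Itgae stood at 487 CPM and Itga1 at 291 CPM in Gzma-cluster T cells, against 16.7 and 41.7 CPM in mixed-cluster T cells. These 2 integrin genes were thus higher in the cells with less Cxcr6, Il7r and Icos, but the list as a whole went both ways. Of 13 residency genes with enough UMIs in the naïve library, 5 were at least 2-fold lower in mixed-cluster than in Gzma-cluster T cells. Another 3 were at least 2-fold higher. The background was 15.6% lower and 9.99% higher of 5066 genes.

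Of 10 circulation genes, 9 had enough UMIs for the same comparison, 4 were at least 2-fold lower at 72 h and 1 was higher (median log2 ratio -0.79), beside 7.83% lower and 12.4% higher of 4279 genes. Klf2, the transcription factor that keeps egress receptors on, stood at 492, 166 and 239 CPM at naïve, 24 h and 72 h, and Klf3 at 167, 111 and 73.6 CPM. Ccr7, a lymph-node homing receptor, had 7, 0 and 4 UMIs, and Ccr9, the small-intestinal homing receptor, stood at 117, 66.5 and 41.4 CPM. S1pr1, an egress receptor, was the higher one, at 16.7 and 36.8 CPM from 2 and 8 UMIs. In all T cells, which include the Gzma cluster, none of 9 was 2-fold lower at 72 h and 2 were higher (background 8.94% lower and 8.38% higher of 6722 genes), so the count of circulation genes also differed with the make-up of the T cells.

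Across 28 groups of cluster and library with at least 20 cells, the level of Cxcr6 (log2 of CPM plus 10) was most like that of Bcl11b (Pearson r = 0.981), Thy1 (0.978) and Klrb1c (0.977) among 9884 genes. Il7r was most like Sh2d1a (0.927), Ctla4 (0.923) and Klrb1c (0.910), and Icos most like Podnl1 (0.978), Ncr1 (0.970) and Klrb1f (0.968). For Thy1 the leading genes were Cxcr6 (0.978), Klre1 (0.977) and Klrb1c (0.967), for Rora Cxcr6 (0.972), Sh2d1a (0.963) and Cd5 (0.960), and for Ctla2a Icos (0.947), Podnl1 (0.947) and Ncr1 (0.940). The groups share libraries and the contrast of lymphocytes with other cells, by which the members were chosen, so these values are descriptions. Over the 7 lymphocyte groups, correlations between members ran from 0.736 for Cxcr6 with Icos to 0.982 for Il7r with Ctla2a. These groups include Gzma-cluster T cells, with little Il7r and no Ctla2a UMI, so the contrast of the 2 clusters enters the values. Single cells of the mixed cluster showed the opposite order for Il7r and Ctla2a. Unthinned, Ctla2a was found in 27.4% of T cells with Il7r and in 45.1% of those without. Among CD3-negative cells it was found in 12 of 40 with Il7r and in 44.9% of those without.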

How the data were processed

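Single-cell RNA sequencing of sorted CD45+ cells was analysed in 3 libraries, 1 per time point. Per the labels, the authors used the 10x 3' v2 kit and Cell Ranger 3.0.2, aligned to GRCm38/mm10, and removed cells with few genes or many mitochondrial transcripts. The deposited values are raw counts of UMIs for each gene in each cell, and no further cell filter was applied.

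Cells were clustered with Seurat 5.3.0 in R 4.3.3 (2000 variable genes without the 6 genes and the other reported genes, 30 principal components from an exact decomposition, 20 neighbours, Louvain resolution 0.8, random seed 0), with no correction between libraries. A cluster took a name when 3 or more markers of a class were each found in 10% or more of its cells, at a level 2-fold or more over that in the rest (pseudocount 10 CPM), and no other class had as many markers among its 10 leading genes. Clusters left without a name were compared once more, with the named clusters of other classes only, which named 4 monocyte/macrophage-like clusters. Cells were counted as T cells with at least 1 UMI of Cd3d, Cd3e or Cd3g. Doublets were called with Scrublet in scanpy 1.11.5, with exact principal components, and were kept in the main setting. Summed UMIs gave CPM with exact Poisson intervals. Shares carry Clopper-Pearson intervals and ratios of CPM exact conditional Poisson intervals, all at 95%. These cover counting error only, since UMIs of 1 cell and cells of 1 library are not independent samples. With 1 library per time point no test was run. Groups under 20 cells in a library were not compared unless stated. Ratios of a gene over all genes used genes with at least 10 UMIs. A count of 0 is given with the limit of 3 counts. On simulated counts with known folds for mixed-cluster T cells at 72 h and in the naïve library, 96.6% of the intervals of 7341 unchanged genes held the true ratio. These counts were drawn as independent Poisson counts, the model behind the intervals, without any gathering of UMIs in single cells. The share thus checks the calculation only, and not the spread between cells, mice or libraries.

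Alternatives were the cell filter, doublet removal, resolution, variable genes, 15 principal components, the CD3 gate, thinning to 1000 UMIs, the mean over cells, the total, and a minimum of 30 UMIs. Numpy 2.4.6, scipy 1.17.1, pandas 2.3.3, Biopython 1.88 and matplotlib 3.10.9 were used. The 6 genes and the gene lists were chosen with earlier results of these data known. The text names the 6 genes, those genes of the lists that a sentence needs to describe a list, and for each of the 6 genes the 3 genes most correlated with it.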

Additional observations from a re-analysis of the deposited data

How the results depend on the processing

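No paired analysis was possible because each time point had 1 library. Of 377 ratios of the 6 genes under the other settings, 364 stayed within the main interval, 13 moved and none that counting error sets apart from 1 changed direction. The 13 came from thinning each cell to 1000 UMIs before the CD3 gate, which leaves fewer UMIs and moved 13 of its 35 ratios. Resolutions 0.5 and 1.2 and 15 principal components left every group at its main size, so their ratios had little room to move. The settings compared T cells of both clusters and all CD3-negative lymphocytes. Ratios within the mixed cluster or the Gzma cluster were not recomputed under them. T cells at 24 h over naïve became 9.45 for Il7r, 3.77 for Thy1, 0.338 for Rora and 4.79 for Ctla2a. At 72 h over naïve they became 8.08 for Il7r and 3.26 for Ctla2a, and at 72 h over 24 h 1.96 for Cxcr6 and 3.55 for Rora. In CD3-negative lymphocytes 72 h over 24 h became 1.01 for Il7r and 0.807 for Rora. CD3-negative over T cells became 0 for Icos (0 UMIs) and 10.1 for Rora at 24 h, and 3.03 for Ctla2a at 72 h.

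Leaving out the Gzma cluster, chosen after seeing the data, moved 9 of 30 ratios. At 24 h over naïve these were 1.38 for Il7r, 1.71 for Icos, 1.44 for Thy1 and 2.72 for Ctla2a, at 72 h over naïve 1.72, 1.24, 1.21 and 2.68, and 1.59 for Ctla2a in CD3-negative over T cells at 72 h. Leaving out also the T cell richest in Ctla2a gave 2.07 for Ctla2a at 72 h over naïve. With at least 30 UMIs, genes 2-fold higher and lower in T cells numbered 128 and 231 at 24 h over naïve, 127 and 155 at 72 h over naïve, and 73 and 46 at 72 h over 24 h, since fewer genes were counted. Counting T cell receptor genes as well as CD3 left 1, 3 and 2 CD3-negative cells, so no ratio with them could be formed. Levels moved in 62 of 594 cases and shares of cells in 40 of 54 after thinning.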

Other observations

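The 2 lymphocyte clusters differed in their effector genes. In naïve Gzma-cluster T cells Gzma stood at 28841 CPM and Gzmb at 5336 CPM, and in mixed-cluster T cells at 825 and 558 CPM. Gzmb in mixed-cluster T cells was at 558 CPM in the naïve library, 1363 CPM at 24 h and 64.4 CPM at 72 h, and in mixed-cluster CD3-negative cells at 106, 442 and 222 CPM. Il17a was found in mixed-cluster T cells of each library (40, 4 and 17 UMIs) and in no CD3-negative cell of the cluster, and the type 3 genes were all at 0 in Gzma-cluster T cells. Ligands of the members were scarce in lymphocytes: mixed-cluster T cells held 1 Cxcl16 UMI and no Il7 UMI.

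The 8 group 2 markers in the tables did not share 1 course in CD3-negative cells of the mixed cluster. Areg, an epidermal growth factor receptor ligand, held 4, 2 and 12 UMIs at naïve, 24 h and 72 h, Klrg1 11, 1 and 30 UMIs, and Il17rb, the IL-25 receptor chain, 3, 0 and 10 UMIs. Gata3 held 15, 14 and 40 UMIs and Hs3st1 4, 3 and 2, whereas Il13 held 0, 5 and 2, Il5 0, 0 and 5 and Il1rl1 0, 0 and 4. These cells held 37830, 83697 and 126209 UMIs in total, so a given count stands for a lower level in the later libraries. The summed level of the 8 was 978, 299 and 832 CPM, and so not higher at 72 h than in the naïve library.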
